A study of Mus musculus with 20 samples.

Results

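Igfbp4, Drc1 and Amica1 were followed in mouse regulatory T cells (Tregs) and CD8+ T cells given IL-2 or the IL-2 partial agonist IL-2-REH. They are 3 of the 23992 gene symbols in the data. They were picked from the measurements, as genes with the lowest IL-2-REH to IL-2 ratio in CD8+ T cells at 4 hr, so that ratio is given here as a description and is not tested. Tregs, the CD4+ T cells that express Foxp3, came from spleen and lymph node of B6-Foxp3EGFP mice and were sorted on the GFP reporter of Foxp3, while CD8+ T cells were enriched with a kit alone from mice that the protocol names as C57BL/6J. The sample records give C57BL/6N as the strain of both cell types. The study's methods name female mice for both strains, and age and the number of animals behind a library are not given in the sources used here. Against that, the Y-linked gene Ddx3y stood at 19.97 to 78.6 RPKM (reads scaled to exon length in kilobases and to mapped reads, so that levels can be set side by side between genes) and Xist, which is made from the inactive X chromosome, at no more than 0.0870 in 15 of the 20 libraries, all 5 of CD8+ cells among them. The 5 replicate 2 Treg libraries had the reverse, with Ddx3y at 0.0119 RPKM or less and Xist at 43.6 to 65.2. The part of this difference in any result was not tested beyond the model with the replicate number as a block and the fits without replicate 2. Each cell type had 5 groups: no cytokine (labelled 0 hr), and 200 nM IL-2 or 200 nM IL-2-REH for 90 min (1.5 hr) or 4 hr. Every Treg group had 3 libraries, numbered 1 to 3, and every CD8+ group had 1, so CD8+ values have no replicate error and no test. Because the libraries without cytokine are those at 0 hr, time in culture and cytokine cannot be told apart in any comparison with them, whereas IL-2-REH and IL-2 were compared at equal dose and time.

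IL-2 signals when its receptor beta chain and the common gamma chain are brought together, which activates JAK1, JAK3 and the transcription factor STAT5. The alpha chain does not signal but makes a cell more sensitive to IL-2. Tregs carry it at all times, and resting CD8+ T cells carry little of it. IL-2-REH is human IL-2, otherwise wild-type in sequence, with substitutions in the surface that meets the common gamma chain. It was designed to give a lower maximal signal. The study made its IL-2 proteins, wild-type and mutant, as fusions to mouse serum albumin. The 3 genes have unlike products. Igfbp4 encodes insulin-like growth factor binding protein 4, a secreted protein that holds IGF1 and IGF2 away from their receptor, and its transcript is often listed among markers of naive T cells. Drc1 encodes a subunit of the nexin-dynein regulatory complex, which ties neighbouring microtubule doublets together in motile cilia and sperm tails, structures that T cells do not build. Amica1, now named Jaml, encodes a junctional adhesion molecule-like surface protein that binds CAR, the product of Cxadr, on epithelium.

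The genes lie on separate chromosomes, all on the plus strand of GRCm38. Igfbp4 (NM_010517) is annotated on chromosome 11 from 99040005 to 99052655, with 4 exons and an exon length of 2066 bases. Drc1 (NM_001033460) runs on chromosome 5 from 30281335 to 30366695, with 17 exons and 2266 bases of exon. Amica1 (NM_001005421) runs on chromosome 9 from 45079153 to 45108531, with 11 exons and 2458 bases of exon. Each of the 3 has 1 transcript in the data, so no choice between transcripts affected its value. The end of Amica1 overlaps Gm10684 on the minus strand (45107176 to 45135606), and whether reads were counted by strand is not stated. Mean levels of Gm10684 in the Treg groups were at most 0.0699 RPKM, and it was listed at 0 in the CD8+ IL-2-REH library at 4 hr.

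The promoter windows of the 3 genes are shown as a description. That the 3 genes were low together in CD8+ T cells given IL-2-REH at 4 hr follows from how they were chosen. The windows are 250 bases before to 50 bases after the transcript start in RefSeq (GRCm38.p6), on the plus strand at chr11:99040994-99041293 for Igfbp4, chr5:30281143-30281442 for Drc1 and chr9:45078933-45079232 for Amica1. Each window is set on a start within the annotated bounds of its gene and not on their first base. For Igfbp4 that start is at 99041244. No letter is in capitals, which were kept for motif matches.
Igfbp4: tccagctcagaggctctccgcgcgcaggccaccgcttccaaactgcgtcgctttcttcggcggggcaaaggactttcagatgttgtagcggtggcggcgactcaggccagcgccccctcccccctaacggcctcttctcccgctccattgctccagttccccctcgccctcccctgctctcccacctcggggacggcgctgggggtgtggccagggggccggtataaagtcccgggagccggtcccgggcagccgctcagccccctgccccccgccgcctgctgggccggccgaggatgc
Drc1: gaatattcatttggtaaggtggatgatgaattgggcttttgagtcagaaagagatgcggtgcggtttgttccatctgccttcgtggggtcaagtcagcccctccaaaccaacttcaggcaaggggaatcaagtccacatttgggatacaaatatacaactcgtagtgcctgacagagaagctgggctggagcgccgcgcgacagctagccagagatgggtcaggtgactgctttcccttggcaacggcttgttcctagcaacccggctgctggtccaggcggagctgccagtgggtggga
Amica1: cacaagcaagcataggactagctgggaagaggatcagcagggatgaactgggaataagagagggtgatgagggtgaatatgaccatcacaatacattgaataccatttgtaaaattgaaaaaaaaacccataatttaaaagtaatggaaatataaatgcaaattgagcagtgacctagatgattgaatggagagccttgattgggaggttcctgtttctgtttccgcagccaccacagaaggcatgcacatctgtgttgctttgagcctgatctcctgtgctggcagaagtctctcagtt
Their base composition differed widely: G and C made up 71.3% of the Igfbp4 window with 27 CpG dinucleotides, 54.3% of the Drc1 window with 11, and 42.3% of the Amica1 window with 1, against a median of 52.7% over 32851 mouse promoters. Both strands were searched for TTCNNNGAA (the STAT5 type), GTAAACA (the FOXO type) and CTTTGAT (the TCF or LEF type), each counted on its own even where matches would share letters, and 8.30%, 3.65% and 3.73% of all promoter windows hold them. The 3 windows hold none of them, which says only that these letters are not within these bases.

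The libraries had 20201392 to 63903764 reads on genes, and the 5 CD8+ libraries 38201667 to 45189835. Markers fitted the labels: Cd8a and Cd8b1 summed to 281.9 to 727.7 RPKM in CD8+ libraries and 4.46 to 12.7 in Tregs, and 5 Treg markers with Foxp3 among them summed to 505.3 to 1061.3 RPKM in Tregs and 12.6 to 28.3 in CD8+ libraries. Tregs also held RNA of other cells. All 5 replicate 3 Treg libraries had 46.7 to 201.7 RPKM over 3 neutrophil genes and 97.2 to 170.5 over 4 erythroid genes, while the other 10 had at most 3.84 and 15.5. Summed macrophage or monocyte markers (5 genes) ranged from 7.74 to 57.3 RPKM, and B cell markers (4 genes) from 1.76 to 16.8. In the CD8+ libraries the 4 sums were 0.605 to 2.02, 1.75 to 5.65, 13.1 to 28.7 and 3.26 to 10.5 RPKM. Summed NK cell markers (3 genes) reached 6.23 RPKM in Tregs and 16.0 in CD8+ libraries, plasmacytoid dendritic cell markers (3 genes) 6.75 and 13.4, and fibroblast markers (4 genes) 1.17 and 0.480. Of the plasmacytoid dendritic cell genes, only Ccr9 reached 1 RPKM in any CD8+ library, so that sum is a weak mark of such cells there.

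In CD8+ T cells, all 3 genes were expressed before stimulation and were lower in both IL-2-REH libraries. Igfbp4 stood at 67.7 RPKM without cytokine, 29.3 after IL-2 for 90 min, 18.6 after IL-2-REH for 90 min, 50.5 after IL-2 for 4 hr and 3.57 after IL-2-REH for 4 hr. It was thus lower than at 0 hr in all 4 treated libraries, with IL-2 at 4 hr closest to the starting level. Drc1 stood at 3.30 RPKM without cytokine, 4.74 after IL-2 and 0.340 after IL-2-REH for 90 min, and 10.5 and 0.171 at 4 hr. Amica1 stood at 17.5, 18.5 and 3.96 RPKM in the same order up to 90 min, and at 32.3 for IL-2 and 2.82 for IL-2-REH at 4 hr. Drc1 and Amica1 therefore had their highest values with IL-2 at 4 hr and their lowest with IL-2-REH at 4 hr, on either side of the unstimulated library.

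**Figure D1:**
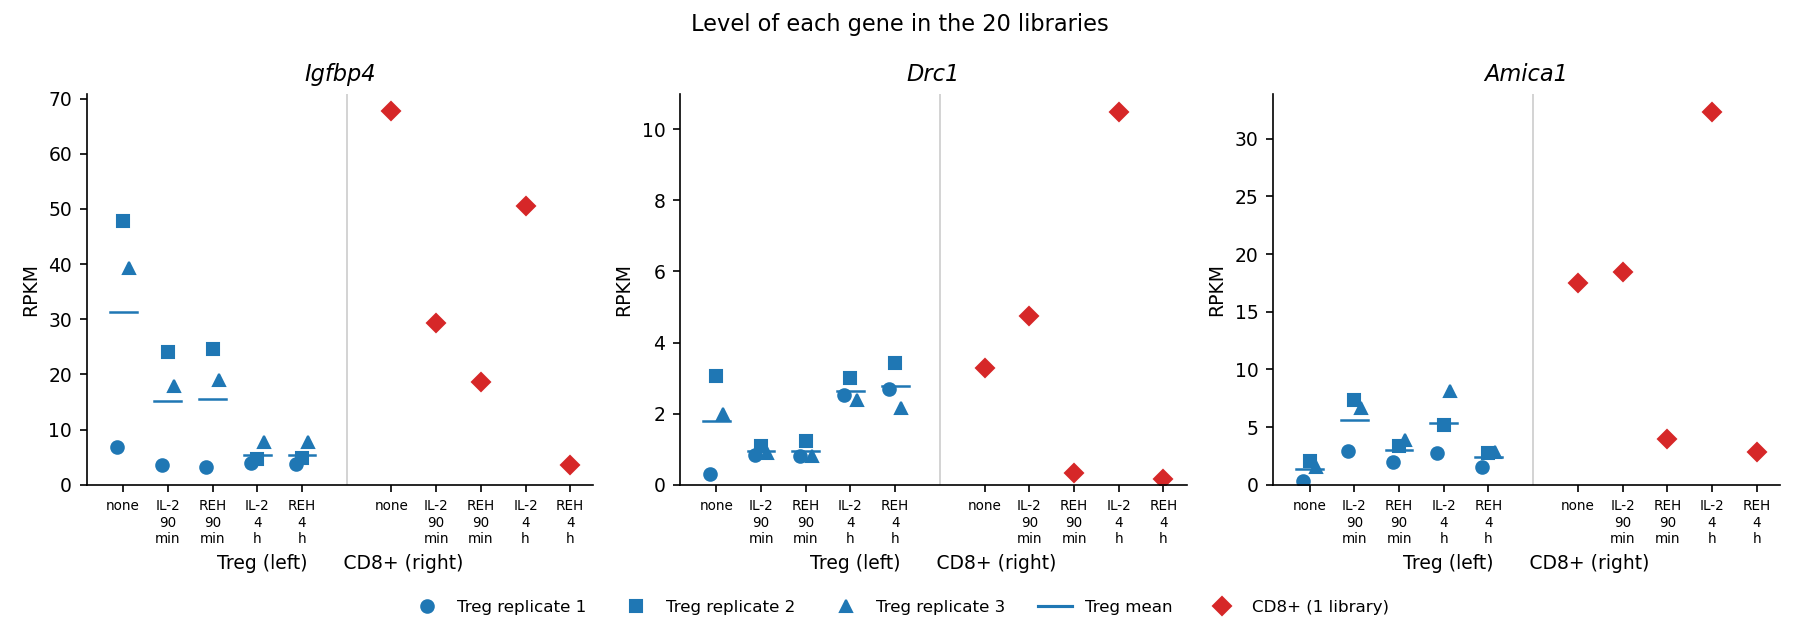
RPKM of Igfbp4, Drc1 and Amica1 in each of the 20 libraries, with Tregs in blue (symbols give the replicate number, lines the mean of 3) and the single CD8+ library of each group in red, and REH standing for IL-2-REH. The CD8+ values with IL-2-REH lie below those with IL-2 at both times, and Treg replicate 1 has 3.28 to 6.89 RPKM of Igfbp4 in the unstimulated and 90 min groups, where replicates 2 and 3 have 18.0 to 47.8.

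The comparison that chose the genes rested on 534 against 7062 reads for Igfbp4, 28 against 1610 for Drc1 and 502 against 5380 for Amica1. Log2 ratios of IL-2-REH to IL-2 at 4 hr, on the scale of RPKM + 1, were -3.49, -3.29 and -3.12, which are ranks 1, 3 and 4 from the lowest among 10021 expressed genes (mean of at least 1 RPKM over the CD8+ libraries). Relative to all mapped reads the levels were 14.1-fold lower for Igfbp4 (95% exact counting interval 12.9 to 15.5), 61.5-fold lower for Drc1 (42.4 to 92.8) and 11.5-fold lower for Amica1 (10.5 to 12.6). These intervals cover counting error only, and reads are not independent molecules. Gzmb (granzyme B) lay between the members at rank 2 with -3.44, and just outside them were Lta (-3.05), Tnf (-2.98), Cish (-2.97), Cdk6 (-2.92) and Bcl2 (-2.79). An absolute log2 ratio above 1, that is, over a 2-fold difference on this scale, was reached by 2.23% of expressed genes. In bulk RNA, less RNA per cell and fewer cells of a kind cannot be told apart. The summed markers of other cells in these libraries were 13.1 RPKM under IL-2 and 14.8 under IL-2-REH for macrophages or monocytes. They were 5.18 and 4.83 for B cells, and 12.8 and 12.4 for NK cells. The plasmacytoid dendritic cell sum was 2.59 and 5.09. Of its 3 genes only Ccr9 reached 1 RPKM in any CD8+ library, so that sum is a weak mark of such cells. The part of other cells in the 3 ratios was not tested.

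At 90 min, in libraries that the choice did not use, Drc1 and Amica1 were already low with IL-2-REH and Igfbp4 much less so. Drc1 had 48 reads with IL-2-REH against 746 with IL-2, a log2 ratio of -2.10, which was 13.9-fold lower relative to mapped reads (95% exact counting interval 10.4 to 19.0) and rank 7 of 10021. Amica1 had 606 against 3154 reads, a log2 ratio of -1.97, or 4.66-fold lower (4.27 to 5.09), at rank 8. Igfbp4 had 2393 against 4215 reads and a log2 ratio of -0.63, 1.58-fold lower (1.50 to 1.66), at rank 239. Of the 3 genes, 2 passed a log2 ratio of 1, against 0.868% of expressed genes. With 1 library per group, these values compare libraries and carry no replicate check.

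Set against unstimulated CD8+ T cells, the 3 genes parted under IL-2 and were all lower under IL-2-REH. With IL-2 for 90 min, log2 ratios were -1.18 for Igfbp4, 0.42 for Drc1 and 0.07 for Amica1, where 7.24% of expressed genes passed 1 in either direction. With IL-2 for 4 hr, they were -0.42, 1.42 and 0.85, where 4.71% passed. Relative to mapped reads that was 3.18-fold higher for Drc1 (95% exact counting interval 2.87 to 3.54) and 1.85-fold higher for Amica1 (1.76 to 1.94), and a ratio of 0.745 for Igfbp4 (0.722 to 0.769). With IL-2-REH for 90 min all 3 were past 1, at -1.81, -1.68 and -1.90, against 8.57% of genes. The same held at 4 hr, at -3.91, -1.88 and -2.27, against 6.11%, though that library is also the one the choice used. The smaller log2 ratio of Drc1 reflects the added 1 RPKM at its low level, since relative to mapped reads it was 19.3-fold lower at 4 hr (13.2 to 29.4), as was Igfbp4 at 19.0-fold (17.4 to 20.7), and Amica1 was 6.20-fold lower (5.63 to 6.83). From 90 min to 4 hr, log2 ratios with IL-2 were 0.76 for Igfbp4, 1.002 for Drc1 and 0.78 for Amica1, and with IL-2-REH -2.10, -0.20 and -0.38. Relative to mapped reads, this step with IL-2-REH was 5.21-fold lower for Igfbp4 (4.74 to 5.74). It was 1.99-fold lower for Drc1 (1.23 to 3.30), whose log2 ratio is again held small by the added 1 RPKM. For Amica1 it was 1.40-fold lower (1.25 to 1.58). Igfbp4 thus had the largest further drop between the 90 min and 4 hr libraries with IL-2-REH. Comparisons that share the unstimulated or a cytokine library are not independent of each other.

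In Tregs the 3 genes behaved unlike each other, and edgeR's quasi-likelihood test called none of their 24 differences in 8 comparisons at an adjusted p under 0.05 when the replicate number was left out of the model. Called shares of all 15009 tested genes were 0.853% for IL-2 at 90 min, 2.27% for IL-2 at 4 hr, 0.0933% for IL-2-REH at 90 min and 0.313% for IL-2-REH at 4 hr, each against unstimulated Tregs, 0.0133% and 0.0267% for IL-2-REH against IL-2 at 90 min and 4 hr, and 0% for 4 hr against 90 min with either cytokine. At an unadjusted p under 0.05 the last comparison had 2551 genes for IL-2 and 2188 for IL-2-REH, and DESeq2 called 383 and 253. Same-numbered Treg libraries deviated together, so a second model with the replicate number as a block is given wherever it changes a call. The block raised the shares to 1.83%, 6.92%, 0.213% and 3.03% against unstimulated Tregs, to 0.0133% and 0.0666% between cytokines, and to 0.386% and 0.04% over time with IL-2 and IL-2-REH.

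Treg replicate 1 without cytokine departed from its group in all 3 genes. It had 6.89 RPKM of Igfbp4 where replicates 2 and 3 had 47.8 and 39.2, 0.291 of Drc1 where they had 3.07 and 1.99, and 0.367 of Amica1 where they had 2.05 and 1.58. Its summed macrophage or monocyte markers were also lowest, 14.3 RPKM against 57.3 and 47.9. Without this library, which was left out after the data had been seen, edgeR called 12.9% of genes for IL-2 and 12.1% for IL-2-REH at 90 min, 8.87% and 6.93% at 4 hr, and 0.678% and 0.458% over time with IL-2 and IL-2-REH. With the block as well these shares were 26.9%, 25.4%, 21%, 16.7%, 11.6% and 11.4%, and 0.549% for IL-2-REH against IL-2 at 4 hr. A call on the 3 genes in these settings is therefore a call among many.

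Igfbp4 in Tregs fell by 4 hr with both cytokines in the blocked model, and no difference between the cytokines was detected. Levels were 31.3 ± 21.6 RPKM without cytokine (SD, n = 3), 15.2 ± 10.5 for IL-2 and 15.6 ± 11.01 for IL-2-REH at 90 min, and 5.50 ± 2.04 and 5.43 ± 2.01 at 4 hr. By replicate, the 4 hr values were 3.97, 4.72 and 7.81 RPKM with IL-2 and 3.82, 4.78 and 7.67 with IL-2-REH, so the groups overlapped almost entirely. Against unstimulated Tregs at 4 hr the log2 fold change was -2.35 under IL-2 (SE 0.83, adjusted p = 0.166 by edgeR) and -2.44 under IL-2-REH (SE 0.83, adjusted p = 0.213). With the block it was -1.97 (SE 0.52, adjusted p = 0.0369) and -2.09 (SE 0.52, adjusted p = 0.0457), and without unstimulated replicate 1 it was -2.81 (adjusted p = 0.0483) and -2.90 (adjusted p = 0.0494). It was lower in 3 of 3 same-numbered pairs with each cytokine, with log2 ratios of RPKM + 1 of -0.67, -3.09 and -2.19 for IL-2 and -0.71, -3.08 and -2.21 for IL-2-REH. At 90 min the log2 fold changes were -0.76 and -0.73 (adjusted p = 0.718 and 0.746), with 3 of 3 pairs lower for each. The summed macrophage or monocyte markers had a like course, 14.3, 57.3 and 47.9 RPKM without cytokine and 7.74, 25.9 and 18.3 with IL-2 or 11.2, 32.9 and 28.1 with IL-2-REH at 4 hr in replicates 1, 2 and 3. Their part in the fall of Igfbp4 was not tested.

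Between the cytokines, the Igfbp4 log2 fold change of IL-2-REH to IL-2 in Tregs was 0.02 at 90 min (95% confidence interval -1.67 to 1.72) and -0.10 at 4 hr (-1.81 to 1.61), neither of which passed (edgeR adjusted p = 0.9999 and 0.9996). In the 3 same-numbered pairs the log2 ratios of RPKM + 1 ran from -0.13 to 0.07 at 90 min and from -0.04 to 0.02 at 4 hr. From 90 min to 4 hr, Igfbp4 changed by -1.59 under IL-2 (adjusted p = 0.328) and -1.71 under IL-2-REH (adjusted p = 0.350). Replicate 1, which was low from the start, went against replicates 2 and 3 in that step with each cytokine.

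Drc1 in Tregs had low levels that followed time more than the kind of cytokine. Without cytokine it stood at 1.78 ± 1.40 RPKM (SD, n = 3). At 90 min it stood at 0.938 ± 0.124 for IL-2 and 0.947 ± 0.241 for IL-2-REH, and at 4 hr at 2.63 ± 0.32 and 2.77 ± 0.64. Every library at 4 hr, from 2.17 to 3.44 RPKM, was above every stimulated library at 90 min, from 0.798 to 1.23. The log2 fold change from 90 min to 4 hr was 1.40 under IL-2 (SE 0.51, adjusted p = 0.225 by edgeR) and 1.39 under IL-2-REH (SE 0.51, adjusted p = 0.277), higher in 3 of 3 pairs for each. Leaving out unstimulated replicate 1, which enters this comparison only through the spread, gave 1.39 (adjusted p = 0.0359) and 1.38 (adjusted p = 0.0429). Against unstimulated Tregs, the 90 min values were -0.69 under IL-2 (adjusted p = 0.577) and -0.68 under IL-2-REH (adjusted p = 0.613). Without unstimulated replicate 1 they were -1.18 (adjusted p = 0.0153) and -1.17 (adjusted p = 0.0172), and replicate 1 was higher at 90 min than without cytokine where replicates 2 and 3 were lower. At 4 hr they were 0.71 with each cytokine (adjusted p = 0.495 and 0.592).

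No Drc1 difference between the cytokines was detected in Tregs. The log2 fold change of IL-2-REH to IL-2 was 0.01 at 90 min (95% confidence interval -1.08 to 1.10) and -0.00 at 4 hr (-1.08 to 1.07), neither of which passed (edgeR adjusted p = 0.9999 and 0.9996). By replicate, Drc1 at 4 hr had 2.52, 2.99 and 2.38 RPKM with IL-2 and 2.69, 3.44 and 2.17 with IL-2-REH. In CD8+ T cells the same comparison gave 10.5 and 0.171 RPKM, a level with IL-2-REH below all 15 Treg libraries.

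Amica1 was the gene whose Treg values were lower with IL-2-REH than with IL-2, as in CD8+ cells, while both cytokines gave higher values than none. It stood at 1.33 ± 0.87 RPKM without cytokine (SD, n = 3), at 5.64 ± 2.36 for IL-2 and 3.05 ± 0.97 for IL-2-REH at 90 min, and at 5.37 ± 2.68 and 2.38 ± 0.73 at 4 hr. In replicates 1, 2 and 3 it had 2.95, 7.35 and 6.62 RPKM with IL-2 and 1.97, 3.33 and 3.84 with IL-2-REH at 90 min. At 4 hr it had 2.80, 5.18 and 8.14 with IL-2 and 1.54, 2.73 and 2.86 with IL-2-REH. IL-2-REH was the lower in all 6 same-numbered pairs, while the groups overlapped, with replicate 1 low throughout.

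Against unstimulated Tregs, Amica1 changed by a log2 fold change of 2.34 with IL-2 for 90 min (SE 0.60, adjusted p = 0.103 by edgeR) and 2.17 at 4 hr (SE 0.59, adjusted p = 0.0754). With the block these were 2.39 (adjusted p = 0.000543) and 2.24 (adjusted p = 0.000548), and without unstimulated replicate 1 they were 1.92 (adjusted p = 0.0432, among 12.9% of genes called) and 1.75 (adjusted p = 0.0764, not called). DESeq2, which called 2.76% and 4.99% of genes in these comparisons, gave adjusted p = 0.00226 and 0.00348. With IL-2-REH the log2 fold change was 1.44 at 90 min (SE 0.58, adjusted p = 0.404) and 0.90 at 4 hr (SE 0.57, adjusted p = 0.540). The block gave 1.54 (adjusted p = 0.0399) and 1.06 (adjusted p = 0.0526). Amica1 was thus higher than without cytokine in 3 of 3 pairs with IL-2-REH at both times, where the CD8+ pair was lower.

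Set against IL-2 in Tregs, IL-2-REH gave Amica1 log2 fold changes of -0.90 at 90 min (95% confidence interval -2.12 to 0.32, adjusted p = 0.9999) and -1.27 at 4 hr (-2.50 to -0.03, unadjusted p = 0.0450, adjusted p = 0.9996). With the block they were -0.85 (adjusted p = 0.9999) and -1.18 (SE 0.27, adjusted p = 0.168), and with the block and without unstimulated replicate 1 the value at 4 hr was -1.19 (adjusted p = 0.0390). In Tregs the level at 4 hr was thus 2.41-fold lower by the unblocked edgeR model over 3 libraries a group. The 11.5-fold of the CD8+ pair is a read ratio between single libraries, from the comparison that chose the gene. The difference between these values was therefore not tested. Whether the IL-2-REH to IL-2 difference changed between 90 min and 4 hr was tested for all 3 genes, with values of -0.12 for Igfbp4, -0.01 for Drc1 and -0.37 for Amica1 (edgeR adjusted p = 1 for each). No gene of the whole table passed that test (0 by edgeR and 0 by DESeq2, with 47 and 78 genes at an unadjusted p under 0.05). Neutrophils also express Amica1, and the replicate 3 Tregs had 46.7 RPKM of neutrophil markers under IL-2 and 201.7 under IL-2-REH at 4 hr. The part of these cells in the Amica1 values was not tested.

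**Figure D2:**
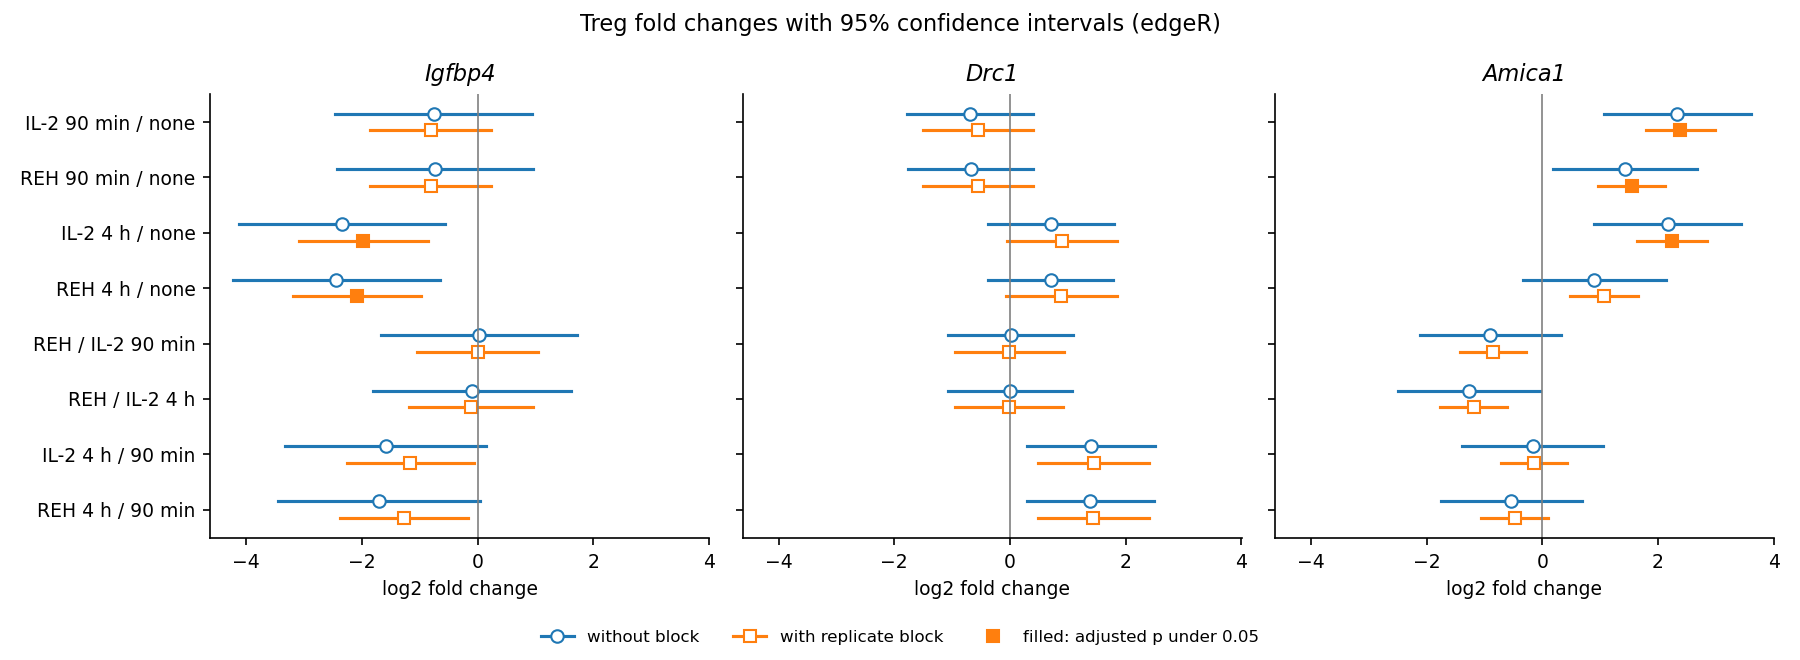
Treg log2 fold changes with 95% confidence intervals from edgeR for the 8 comparisons, without a block (blue) and with the replicate number as a block (orange), filled where the adjusted p is under 0.05. The 5 filled points are Igfbp4 at 4 hr with either cytokine, and Amica1 with IL-2 at both times and with IL-2-REH at 90 min.

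**Figure D3:**
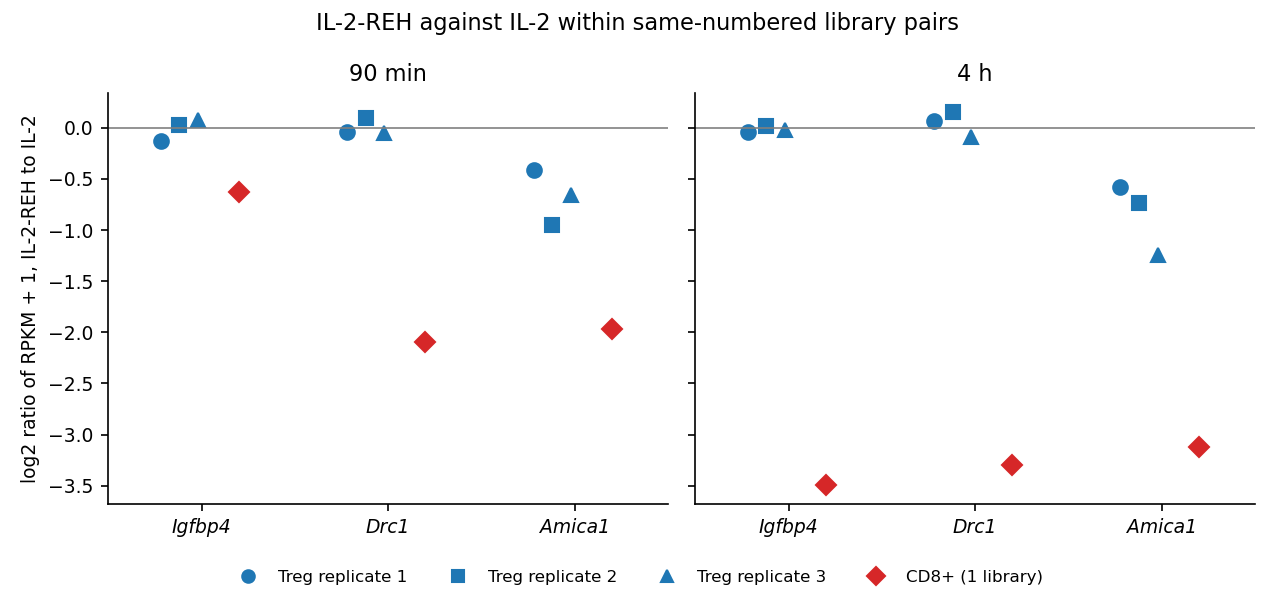
Log2 ratios of RPKM + 1, IL-2-REH to IL-2, at 90 min and 4 hr for the 3 same-numbered Treg pairs (blue) and the CD8+ pair (red). Treg values of Igfbp4 and Drc1 lie between -0.13 and 0.15, Amica1 lies between -1.24 and -0.41, and the CD8+ value is lowest for every gene at both times.

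Ordered by level, CD8+ T cells were at the top for all 3 genes, and the CD8+ group with IL-2-REH at 4 hr was lowest for Igfbp4 and Drc1 but not for Amica1. For Igfbp4 the 2 highest groups were CD8+ without cytokine and CD8+ with IL-2 at 4 hr, both above every Treg library, and then came unstimulated Tregs, the 90 min groups of both cell types, the Treg 4 hr groups and CD8+ with IL-2-REH at 4 hr. Neighbouring Treg groups in that order overlapped. For Drc1 the CD8+ libraries with IL-2 were above all Tregs, the unstimulated CD8+ library at 3.30 RPKM lay within the Treg range of 0.291 to 3.44, and the CD8+ groups with IL-2-REH were at the foot, the one at 90 min (0.340) above a single Treg library. For Amica1 the 3 CD8+ libraries without IL-2-REH, at 17.5 to 32.3 RPKM, were above all Tregs at 0.367 to 8.14, and those with IL-2-REH, at 3.96 and 2.82, lay within the Treg range.

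Genes with the most similar pattern over the 20 libraries were sought among 10457 genes by Pearson correlation of log2(RPKM + 1), a description in which the CD8+ libraries that chose the genes take part. Closest to Igfbp4 were Flt3l (r = 0.90), Nat10 (0.90), Acsl5 (0.89), Mthfd1 (0.88) and Eya2 (0.87). Flt3l, the ligand of the receptor Flt3, stood at 23.9 RPKM under IL-2 and 4.61 under IL-2-REH in CD8+ T cells at 4 hr. Closest to Drc1 were Sh3bp1 (0.85), Treml2 (0.83), the survival gene Bcl2 (0.83), the G1 cyclin Ccnd3 (0.82) and Mvd (0.81). Bcl2 and Ccnd3 had 98.5 and 60.6 RPKM with IL-2 at 4 hr in CD8+ T cells, and 13.4 and 28.5 with IL-2-REH. Closest to Amica1 was the kinase gene Pim2 (0.93), at 93.9 RPKM under IL-2 and 28.6 under IL-2-REH, followed by Ccdc102a (0.81), Ier3 (0.80), Txk (0.79) and Ncf1 (0.78). The 3 genes themselves correlated with each other at 0.37 to 0.61 over 20 libraries, and at -0.05 to 0.15 over the 15 Treg libraries, which share their replicate numbers.

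**Figure D4:**
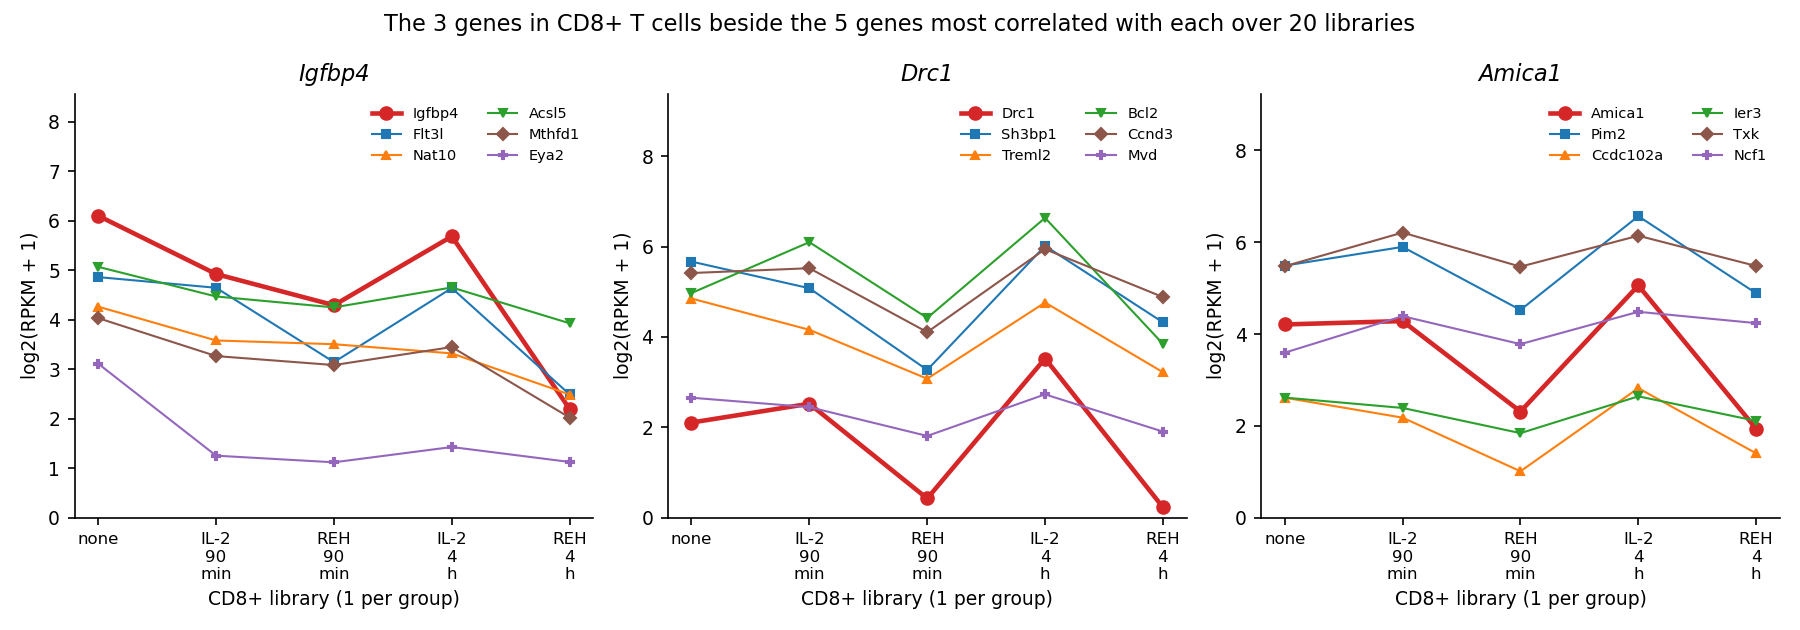
Level, as log2(RPKM + 1), of each gene (thick red) and of the 5 genes most correlated with it over 20 libraries, in the 5 CD8+ libraries (REH is IL-2-REH). All of the lines are lower with IL-2-REH than with IL-2 at 4 hr. Those of Igfbp4, Drc1 and Amica1 show the widest gap in their panels, which follows from their choice by that ratio.

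Among the neighbouring genes, none passed a log2 ratio of 1 between the cytokines in CD8+ T cells at 4 hr, on the scale of RPKM + 1. Of all expressed genes, 2.23% did. The log2 ratio of IL-2-REH to IL-2 was -0.22 for Top2a and -0.02 for Tns4 on either side of Igfbp4, -0.28 for Ept1 and -0.08 for Otof beside Drc1, and -0.09 for Mpzl3 and 0.14 for Scn2b beside Amica1. Otof begins 371 bases after the end of Drc1 and stood at 0.0580 RPKM for IL-2 and 0.00194 for IL-2-REH, lower in the same direction as Drc1 but at levels where the added 1 RPKM hides any ratio, and Mpzl3, itself an adhesion molecule gene, ends 1716 bases before Amica1. In Tregs Scn2b, a sodium channel subunit gene, went from a mean of 2.06 RPKM without cytokine to 5.83 for IL-2 and 6.00 for IL-2-REH at 4 hr.

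Of the 19 other insulin-like growth factor pathway genes, the binding proteins were nearly silent and the receptors were expressed. The 6 other binding protein genes reached at most 0.132 RPKM in CD8+ libraries and 0.316 in Tregs, so Igfbp4 was the binding protein gene with a clear level. Expressed in CD8+ T cells were 4 genes: the receptors Igf1r, Igf2r and Insr, and the adaptor Irs2. Igf1r stood at 2.54 RPKM without cytokine, 7.20 for IL-2 and 11.9 for IL-2-REH at 4 hr, log2 ratios of 1.21 and 1.86 to the unstimulated library, and Irs2 had -1.56 and -1.21. None of the 4 passed a log2 ratio of 1 between the cytokines, where 0.868% of expressed genes did at 90 min and 2.23% at 4 hr. Their median at 4 hr was 0.48 against 0.08 over all expressed genes. In Tregs 13 of the 19 were tested. Igf1r rose with IL-2 at 4 hr (log2 fold change 1.18, adjusted p = 0.0227 by edgeR), as 1 of 13, where 2.27% of all genes were called. With the block, where 6.92% of all genes were called, Insr did too (0.93). Igf1r rose with IL-2-REH at 4 hr under the block (1.11), where 3.03% were called. None fell.

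In CD8+ T cells the nexin-dynein and ciliary list offers 1 expressed gene to set beside Drc1. A difference between them in the IL-2-REH to IL-2 ratio at 4 hr follows from how Drc1 was chosen. Of 21 other genes, 17 were in the data and 1, Gas8 (another subunit of the complex), was expressed in CD8+ T cells, at 1.38 RPKM without cytokine, 1.39 for IL-2 and 1.67 for IL-2-REH at 4 hr. In Tregs 9 were tested and none passed without the block, where at most 2.27% of all genes were called in any comparison. With it, Foxj1, a transcription factor of motile cilia that T cells also use, rose at 4 hr with IL-2 (log2 fold change 3.54) and IL-2-REH (3.61). It was 1 of 9, and rose from a median of 0.133 RPKM. These fits called 6.92% and 3.03% of all genes, and a list of 9 is too short to set against such shares. The list's median in Tregs at 4 hr without the block was -0.77 with IL-2, against -0.00 over all genes, and -0.02 with IL-2-REH, against 0.01. Of the 18 genes of the list in the data, Drc1 among them, 4 reached 1 RPKM in any Treg library.

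Of the 15 other genes of the junctional adhesion and CAR family and its integrin partners, 5 were expressed in CD8+ T cells. Of these Itgb2, the beta chain of LFA-1, alone passed a log2 ratio of 1 against the unstimulated library. It was at -1.12 under IL-2 and -1.99 under IL-2-REH at 4 hr, where 4.71% and 6.11% of expressed genes passed. None of the 5 did so between cytokines, where 0.868% passed at 90 min and 2.23% at 4 hr. Their median was -0.13 at both times, against -0.07 at 90 min and 0.08 at 4 hr over all genes. In Tregs 10 were tested. Cxadr, which encodes the ligand of the Amica1 protein, rose with IL-2 at 90 min (log2 fold change 2.63), where 0.853% of all genes were called. At 4 hr, where 2.27% were called, Mpzl2 rose (3.36) and Itgal, the alpha chain of LFA-1, fell (-1.35). None passed with IL-2-REH without the block, where 0.0933% of all genes were called at 90 min and 0.313% at 4 hr. With it Itgal and Itgb2 fell at 4 hr for IL-2 (-1.33 and -1.21) as for IL-2-REH (-1.42 and -1.36), in fits that called 6.92% and 3.03% of all genes.

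A list of 16 IL-2 and STAT5 targets, chosen with results of these data known, was also lower with IL-2-REH in CD8+ T cells. At 90 min 11 of 16 had a log2 ratio of IL-2-REH to IL-2 below -1 and 0 above 1, with a median of -1.40 against -0.07 over all expressed genes. At 4 hr it was again 11 and 0, with a median of -1.86 against 0.08, and Gzmb (-3.44), Lta (-3.05), Cish (-2.97) and Bcl2 (-2.79) led. Of all expressed genes, 0.868% at 90 min and 2.23% at 4 hr passed 1 in either direction. Against the unstimulated library at 4 hr of IL-2-REH, 0 of 16 were above 1, and Myc (-1.78), Gzmb (-1.61), Socs3 (-1.51), Ccnd2 (-1.21) and Bcl2 (-1.13) were below -1. In that comparison 6.11% of all expressed genes passed 1 in either direction. In Tregs 3 of 16 rose with IL-2 at 90 min and 4 at 4 hr, led by the feedback inhibitor Socs1 (2.28 and 2.36), and with IL-2-REH 1 rose at 90 min (Cish, 1.10) and 0 at 4 hr. In these comparisons 0.853%, 2.27%, 0.0933% and 0.313% of all genes were called. With the block the list's counts were 4, 7, 1 and 3, where 1.83%, 6.92%, 0.213% and 3.03% of all genes were called. None differed between the cytokines in Tregs, where 0.0133% and 0.0267% of all genes were called without the block. The list's medians there were -0.40 and -0.69 against 0.02 and 0.01.

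Naive T cell genes did not follow Igfbp4 in CD8+ T cells. Of 17 expressed, 3 were above 1 with IL-2-REH against IL-2 at 4 hr, Il7r (1.70), St8sia6 (1.43) and Tcf7 (1.14), and 0 were below -1. In that comparison 2.23% of all expressed genes passed 1 in either direction. Dapl1 had the lowest ratios of the naive list to the unstimulated library, with -2.71 for IL-2 and -2.89 for IL-2-REH at 90 min and -1.83 and -1.12 at 4 hr. Of 23 expressed memory and effector CD8 genes, 2 were above 1 and 6 below -1 with IL-2-REH against IL-2 at 4 hr, again beside 2.23% of all expressed genes. Their median was -0.60, with Gzmb (-3.44), Nkg7 (-2.10) and Ly6c2 (-1.54) on the lower side and Klrd1 (1.80) and Itgae (1.30) on the higher. In Tregs the naive list had 1 gene higher (Bach2, 1.05) and 1 lower (Il7r, -1.37) with IL-2 at 4 hr, and the memory list had 1 lower (Itgae, -1.76), where 2.27% of all genes were called. With IL-2-REH both lists had 0 in each direction without the block, where 0.0933% of all genes were called at 90 min and 0.313% at 4 hr. With the block, the naive list had 1 higher and 3 lower with IL-2 at 4 hr, and in the memory list Gzmb (1.50) rose and 6 genes fell, of 18 and 25 tested and where 6.92% of all genes were called. For IL-2-REH at 4 hr the block gave no naive list call, and 3 memory list genes fell, Ifng (-2.98) the furthest, where 3.03% of all genes were called.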

How the data were processed

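RNA from 15 Treg and 5 CD8+ T cell libraries was sequenced as single-end reads of 50 bases. Per the labels and the study's methods, reads were mapped to mm10 (GRCm38) with Bowtie2 2.2.6 and TopHat2 2.1.1 and uniquely mapped reads were kept, with SAMtools 0.1.8, bedtools 2.25.0 and edgeR also named in the submitters' processing notes. For each of 31682 RefSeq transcripts of 23992 symbols, the authors deposited the read count on exons, without normalization, and the RPKM. Where a symbol had several transcripts (4343 symbols), the transcript with most reads stood for it, which left the counts of genes shared by transcripts uncertain. No pair of libraries held identical counts (0 pairs).

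Treg counts were tested with edgeR 4.0.16 in R 4.3.3 (TMM, filterByExpr, glmQLFit and glmQLFTest, 5 group means over 15 libraries), with Benjamini-Hochberg adjustment over 15009 genes and a threshold of 0.05. Deviations from group means correlated above 0.1 in all 30 same-numbered pairs of Treg libraries (lowest 0.12, median 0.55). Replicate 2 libraries had 43.6 to 65.2 RPKM of Xist and at most 0.0119 of the Y-linked Ddx3y, and the other 15 libraries at most 0.0870 of Xist and 19.97 to 78.6 of Ddx3y, so the replicate numbers, which come from the labels, set replicate 2 apart as cells of other animals, female by these genes where the rest are male. Nothing states that replicates 1 and 3 were separate mice. The p-values measure the spread between these libraries, which includes a difference of animals and sex for replicate 2 and may otherwise be technical. CD8+ values were log2 ratios of RPKM + 1 over genes that averaged 1 RPKM or more across the CD8+ libraries, with exact 95% Clopper-Pearson counting intervals for read ratios relative to mapped reads, which cover counting error only. Alternatives were the replicate block, the DESeq2 (1.42.0) test, limma (3.58.1) with pseudocounts of 1 and 0.1 RPKM, no filter, the longest transcript, other scalings and left-out libraries. Leaving out single libraries, alone or with the block, was added after seeing the data. Positions and promoters came from RefSeq GRCm38.p6 (all 3 genes matched, Amica1 as Jaml) and exon numbers from GENCODE vM21. Tables were handled with Python 3.11.15, pandas 2.3.3, numpy 2.4.6 and scipy 1.17.1, and figures with matplotlib 3.10.9.

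The genes and the lists were chosen with earlier results of these data known. Genes named were the 3 members, the 5 most correlated with each, the nearest or overlapping genes, those next to them in the CD8+ order, and the largest changes within each list; Gas8, Scn2b, Cd8a, Cd8b1 and Foxp3, and list genes beyond 4, were named after their values were seen.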

Additional observations from a re-analysis of the deposited data

Results flagged for a closer look

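In 4 comparisons all 3 same-numbered Treg pairs moved one way and the CD8+ pair the other way, on the scale of log2 ratios of RPKM + 1. Amica1 with IL-2-REH for 90 min against unstimulated cells was -1.90 in CD8+ T cells and 1.12, 0.51 and 0.91 in Treg pairs 1, 2 and 3. At 4 hr the Amica1 ratio was -2.27 in CD8+ T cells and 0.89, 0.29 and 0.58 in Tregs. Drc1 with IL-2-REH for 4 hr was -1.88 in CD8+ T cells and 1.52, 0.12 and 0.085 in Tregs. From 90 min to 4 hr of IL-2-REH, Drc1 was -0.20 in CD8+ T cells and 1.04, 0.997 and 0.80 in Tregs. These differences between cell types were not tested, because each CD8+ group has 1 library. The CD8+ library with IL-2-REH at 4 hr, which enters 3 of the 4, also served to choose the genes.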

How the results depend on the processing

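The CD8+ values have 1 library per group, and Drc1 rests on 28 reads in the IL-2-REH library at 4 hr, so they carry counting error only, while the Treg results rest on 3 libraries a group and on how replicate 1 was handled. Pairing Tregs by replicate number as a block turned 5 of 27 Treg results from not called to called by edgeR. These were Amica1 with IL-2 at 90 min (2.39) and 4 hr (2.24) and with IL-2-REH at 90 min (1.54), and Igfbp4 at 4 hr with IL-2 (-1.97) and IL-2-REH (-2.09). The block changed no other call, and it turned Drc1 between cytokines at 90 min from 0.01 to -0.0091. With the block and without unstimulated replicate 1, a setting chosen after seeing the data, 11 results were called. For Amica1 they were 2.16 and 1.998 with IL-2 at 90 min and 4 hr, 1.30 and 0.81 with IL-2-REH, and -1.19 between cytokines at 4 hr. For Drc1 they were -1.09 at 90 min for either cytokine, and 1.41 and 1.40 from 90 min to 4 hr, and for Igfbp4 -2.23 and -2.34 at 4 hr, while Drc1 between cytokines at 90 min was -0.0034. Leaving out replicate 1 in every group also gave 11 called results. Among them was Igfbp4 from 90 min to 4 hr, at -1.89 under IL-2 (adjusted p = 0.0305 by edgeR). Under IL-2-REH it was -1.99 (adjusted p = 0.0276 by edgeR). Among the 14477 genes tested in that fit, this step had 625 calls under IL-2 and 574 under IL-2-REH. The unblocked model on all libraries had 0 for each. Against unstimulated Tregs the fit called 2509 genes for IL-2 and 2269 for IL-2-REH at 90 min, and 1937 and 1545 at 4 hr. A call on the 3 genes there is thus a call among many. The libraries left in each group differ in sex by Xist and Ddx3y. DESeq2 called Amica1 with IL-2 at 90 min (2.33) and 4 hr (2.18). The cause of these changes was not tested.

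Values that turned sign under limma were all near 0. Between cytokines at 90 min, Igfbp4 was -0.011 with a pseudocount of 1 RPKM and -0.021 with 0.1, and Drc1 was -0.0044 with 0.1. Between cytokines at 4 hr, Drc1 was 0.043 and 0.053 with the 2 pseudocounts, its change in that difference over time was 0.042 and 0.058, and that of Igfbp4 was 0.0017 with 0.1. Without a filter on low counts and with the longest transcript, all 27 Treg results kept their direction and call. Log2 fold changes with a library or a replicate number left out ran, for Amica1, from 1.92 to 2.70 (IL-2 at 90 min), 1.63 to 2.60 (IL-2 at 4 hr), 1.02 to 1.76 (IL-2-REH at 90 min), 0.48 to 1.23 (IL-2-REH at 4 hr), -1.26 to -0.61 and -1.57 to -0.73 (between cytokines at 90 min and 4 hr), -0.71 to 0.16 and -0.83 to -0.25 (over time with IL-2 and IL-2-REH) and -0.68 to 0.17 (change in the difference between cytokines). For Drc1 the ranges in that order were -1.18 to -0.18, 0.22 to 1.21, -1.17 to -0.17, 0.22 to 1.21, -0.23 to 0.19, -0.13 to 0.11, 1.24 to 1.52, 1.203 to 1.63 and -0.19 to 0.23. For Igfbp4 they were -1.21 to -0.27, -2.81 to -1.86, -1.19 to -0.23, -2.90 to -1.995, -0.46 to 0.52, -0.49 to 0.34, -2.08 to -0.96, -2.21 to -1.13 and -0.61 to 0.37.

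CD8+ log2 ratios kept their sign in every setting, and the longest transcript left all 18 within their counting error. Centring on the median gene moved 3 of 18 beyond it, Igfbp4 with IL-2 at 4 hr (-0.34) and IL-2-REH at 90 min (-1.69) and Amica1 with IL-2 at 4 hr (0.92). A pseudocount of 0.1 RPKM gave 1.64 for Drc1 with IL-2 at 4 hr, -2.95 for Drc1 and -2.11 for Amica1 with IL-2-REH at 90 min, and -4.21, -3.65 and -2.59 for Igfbp4, Drc1 and Amica1 with IL-2-REH at 4 hr. Between cytokines it gave -3.46 for Drc1 and -2.19 for Amica1 at 90 min, and -3.78, -5.29 and -3.47 at 4 hr, where the ranks of Igfbp4, Drc1 and Amica1 became 3, 1 and 5. Counts scaled by TMM to CPM + 1 gave -0.34, 1.67 and 0.96 for the 3 genes with IL-2 at 4 hr, -1.72 for Igfbp4 and -2.45 for Drc1 with IL-2-REH at 90 min, -4.11, -2.97 and -2.50 with IL-2-REH at 4 hr, -2.98 for Drc1 between cytokines at 90 min, and -3.77, -4.64 and -3.46 between cytokines at 4 hr.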
